A study of Mus musculus with 24 samples.

Results

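mmu-miR-184-3p and mmu-miR-338-3p, here miR-184-3p and miR-338-3p, are 2 of the 1009 miRNAs listed for the mouse mammary gland, paired because both were far lower in late pregnancy than in adult mice. They were picked by name for that fall, so their levels in adult and pregnant mice are described here without a test, and the question put to the data is whether they came back after lactation. Small RNA was measured in whole homogenates of mammary glands from 24 female mice of the inbred strain C57BL/6, each mouse giving 1 library and each stage holding 6 mice. W10 mice were adults aged 10 weeks, P18 mice had reached gestation day 18, Lac7 mice had lactated for 7 days, and Inv3 mice were in involution, the regression of the gland once milk removal stops, at its day 3. No mouse carried an engineered allele or received an agent, as far as the labels say. The design text of the series exchanges the days of lactation and involution and names the inguinal glands alone, while the labels of the libraries and the methods of the study give the days used here, and those methods name the abdominal and inguinal pairs. Between 660346 and 1165321 reads per library were assigned to miRNAs, with the fewest at Lac7 (median 693166). The values are RPM, that is, reads per 1000000 of these reads. In a whole gland, fewer cells of a type and less miRNA per cell cannot be told apart.

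A miRNA is a short RNA that pairs with messenger RNAs mainly through its seed, bases 2 to 8 from the 5′ end, and lowers their translation or stability. miR-184 is known for its high level in surface epithelia, above all cornea, lens and epidermis. miR-338 is known from the nervous system, where, with miR-219, it promotes the maturation of the myelin-forming oligodendrocytes, and its gene lies inside Aatk, a kinase gene expressed in neural tissue. The mature sequences follow, from RefSeq on GRCm38.p6, with the seed in capitals, since the seed largely decides which targets each miRNA can have. miR-3065-5p is shown beside them because its precursor lies opposite that of miR-338.
miR-184-3p: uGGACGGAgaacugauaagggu
miR-338-3p: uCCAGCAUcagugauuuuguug
miR-3065-5p: uCAACAAAaucacugaugcugg
The 3 seeds differ from each other, and among 1679 mature mouse miRNA names in the sequence table used none had the seed of miR-184-3p or of miR-338-3p. Each member is thus the sole mature miRNA of its seed in that table. It held a sequence for 854 of the 1009 miRNAs listed, and the seeds of the rest were not compared. miR-338-3p and miR-3065-5p are complementary over 21 of their 22 bases.

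In GRCm38, Mir184 lies on chromosome 9 from 89802260 to 89802328 on the minus strand, outside any annotated gene, with the coding gene Ankrd34c nearest at 63785 bp. Mir338 lies on chromosome 11 from 120014765 to 120014862 on the minus strand, in an intron of Aatk, which is transcribed from the same strand. Mir3065 lies on the plus strand from 120014767 to 120014853, within the span of Mir338. The members thus come from different chromosomes, while miR-338 and miR-3065 come from opposite strands of the same stretch of DNA. The kit used for the libraries keeps strand, but the sources used here do not give whether the counting used it, and without it reads of miR-338-3p and miR-3065-5p cannot be told apart.

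In adult mice, miR-184-3p was at 263 RPM in the lowest mouse, a median of 554 and 715 in the highest, with a mean of 509 ± 185 RPM (SD, n = 6 mice). At P18 the mice ran from 32.2 to 62.9 RPM with a median of 44.9, and at Lac7 from 11.97 to 26.7 with a median of 18.2. At Inv3 they ran from 38.9 to 103 RPM with a median of 55.1. Adult mice therefore stood far above all others, lactating mice lay below every pregnant and every involuting mouse (19.1% of the tested miRNAs were lower in all Lac7 than in all P18 mice), and the ranges of P18 and Inv3 overlapped. The means were 47.7 ± 11.4 at P18, 17.6 ± 5.43 at Lac7 and 64.0 ± 26.0 RPM at Inv3. Even the lowest library held 8 reads of miR-184-3p, above the 3 reads that a count of 0 allows.

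miR-338-3p was at 443 RPM in the lowest adult mouse, a median of 569 and 689 in the highest, with a mean of 570.1 ± 106 RPM. At P18 the mice ran from 76.6 to 139 RPM with a median of 82.9. At Lac7 they ran from 41.2 to 110 with a median of 68.7, and at Inv3 from 72.02 to 188 with a median of 129. Again no mouse of a later stage reached an adult one, which was so for 16.9% of the tested miRNAs at P18, 29.4% at Lac7 and 12.1% at Inv3, but here the ranges of P18, Lac7 and Inv3 all overlapped. The means were 95.3 ± 24.9 at P18, 74.0 ± 31.4 at Lac7 and 131 ± 49.4 RPM at Inv3, and no library held fewer than 31 reads.

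**Figure D1:**
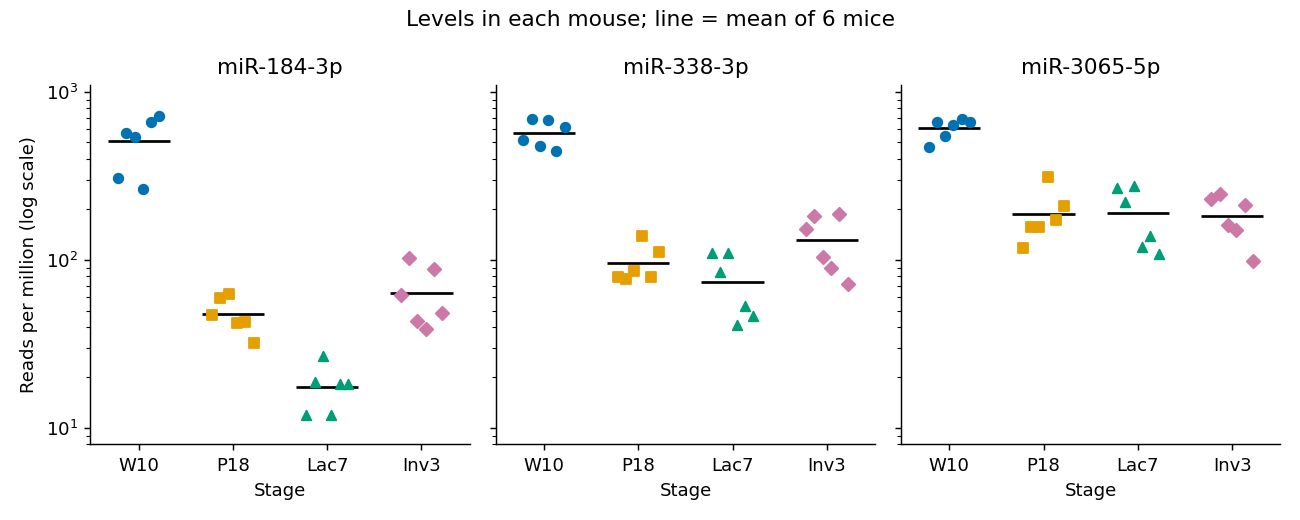
RPM of miR-184-3p, miR-338-3p and miR-3065-5p on a log axis by stage, with 1 point per mouse and a line at the mean of 6 mice. All 3 are highest at W10. miR-184-3p dips at Lac7 (17.6 RPM) and rises at Inv3 (64.0 RPM), while miR-3065-5p stays near 188 RPM at P18, Lac7 and Inv3.

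By the fall from W10 to P18 that chose them, miR-184-3p was 10.7-fold lower and miR-338-3p 5.98-fold lower. On log2(RPM + 1), the scale of all log2 fold changes here, these were differences of -3.33 and -2.58, the fifth and the eighth lowest of the 544 miRNAs tested. In that ranking miR-1a-3p (-3.33), a miRNA of striated muscle, and miR-133a-5p (-3.09) came directly before and after miR-184-3p, and miR-467a-3p (-2.72) and miR-297c-3p (-2.55) before and after miR-338-3p. Of all tested miRNAs 20.0% were called lower at P18 than at W10, with an adjusted p under 0.05 and a log2 fold change of -1 or beyond.

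After lactation, miR-184-3p rose. From Lac7 to Inv3 its mean was 3.63-fold higher, and all 6 involuting mice lay above all 6 lactating ones, as was the case for 13.6% of the tested miRNAs. On the log2 scale the rise was 1.76 (SE 0.27, adjusted p = 5.53e-06 by limma with Benjamini-Hochberg adjustment). miR-338-3p also rose, by less, with a mean 1.77-fold higher and a log2 rise of 0.84 (SE 0.26, adjusted p = 0.0087 by limma). Its mice overlapped, since 3 of the 6 involuting mice lay above every lactating mouse. Of all tested miRNAs 27.9% were higher at Inv3 with an adjusted p under 0.05, and 16.5% also had a log2 fold change of at least 1, which miR-184-3p reached and miR-338-3p did not. Over all miRNAs tested the log2 change had a median of 0.28 (0.18 with size factors, a scaling that follows the median miRNA instead of the library total), and both members lay above it. The rule uses W10 and P18 mice, not those compared here, but the members were named with earlier results of all stages known.

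The rise left both far below the adult level. At Inv3, miR-184-3p was at 12.6% of its W10 mean, after 9.37% at P18 and 3.47% at Lac7. miR-338-3p was at 23%, after 16.7% at P18 and 13.0% at Lac7. The lowest adult mouse was still 2.56-fold above the highest involuting one for miR-184-3p and 2.36-fold for miR-338-3p. On log2(RPM + 1), Inv3 differed from W10 by -2.97 (standard error 0.27) for miR-184-3p and by -2.18 (0.26) for miR-338-3p. With size factors, which moved the median of all tested miRNAs from -0.41 to -0.10, the differences were -2.59 and -1.80. Since a high W10 level helped to choose the members, these differences are a description. Counted in RPM, miR-184-3p had regained 9.43% and miR-338-3p 11.6% of the drop from W10 to Lac7. Measured against pregnancy, the Inv3 means were 1.34-fold and 1.38-fold those of P18, with log2 differences of 0.36 (0.27) and 0.40 (0.26) (standard errors in parentheses), a description, since the low P18 values chose the members. The stages thus ran in the order W10, Inv3, P18 and Lac7 for both members. The ranges of Inv3 and P18 overlapped for both, as did those of P18 and Lac7 for miR-338-3p (log2 difference -0.43, standard error 0.26), while for miR-184-3p the log2 difference of Lac7 from P18 was -1.402 (0.27). With size factors, Lac7 differed from P18 by -0.13 (0.25) for miR-338-3p and by -1.11 (0.28) for miR-184-3p. The median of all tested miRNAs for this step moved from -0.34 to -0.14.

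Against the other miRNAs that were low in pregnancy, miR-184-3p stood high in its rise, and both stood low in the level reached. Of the 109 miRNAs called lower at P18 than at W10, 56 were higher at Inv3 than at Lac7 with an adjusted p under 0.05 (27.9% of all tested miRNAs were). The median log2 fold change of the 109 was 0.65, beside 0.28 over all tested miRNAs. miR-184-3p had the rank of 16 from the top among these 109 in that rise, and miR-338-3p the rank of 48. Of the 46 with a W10 mean of at least 100 RPM, the median level at Inv3 was 43.6% of W10, and miR-184-3p was the sixth and miR-338-3p the eighth lowest. These counts share the W10 mice with the choice of the members and are a description.

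**Figure D2:**
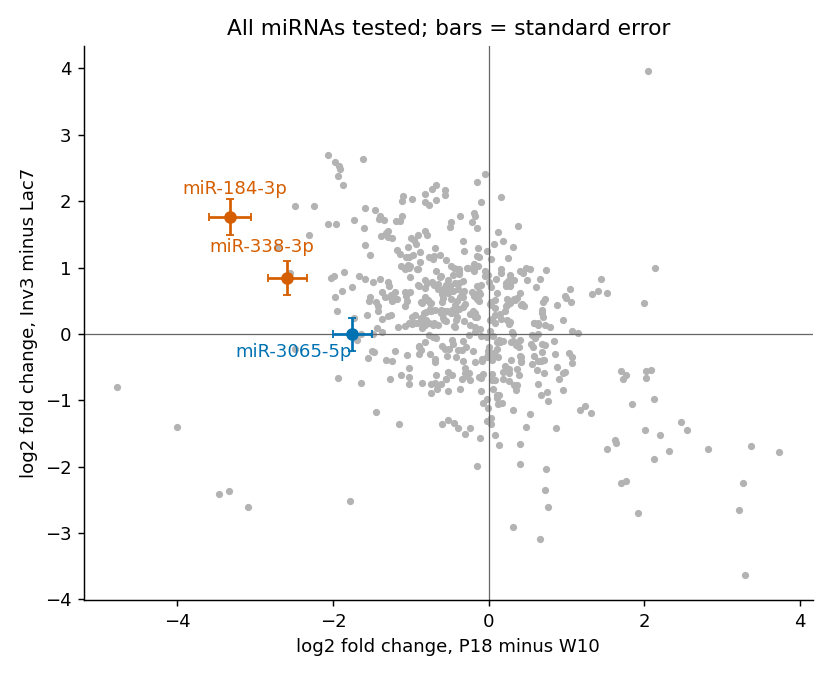
log2 fold change from Lac7 to Inv3 (vertical) against that from W10 to P18 (horizontal) for the 544 miRNAs tested, 1 grey point each, with standard errors for the named miRNAs. miR-184-3p (-3.33 and 1.76) and miR-338-3p (-2.58 and 0.84) fell and rose, and miR-3065-5p (-1.75 and -0.01) lies near 0 on the vertical axis.

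Within a library, the ratio of the members depends on the scaling only through the 1 RPM added to each value. In adults miR-184-3p stood at 0.848 times miR-338-3p, in pregnancy at 0.506, in lactation at 0.259 and in involution at 0.49 (geometric means of 6 mice on RPM + 1). From Lac7 to Inv3 this ratio rose 1.89-fold (two-sided exact permutation test over all splits of the 12 mice, p = 0.00216, the smallest such a test can give, adjusted over 7 ratios 0.00379), and it was higher in 6 of 6 involuting mice than in any lactating mouse. The rise of miR-184-3p was therefore larger than that of miR-338-3p. Adult mice varied most in the ratio, from 0.389 to 1.49.

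**Figure D3:**
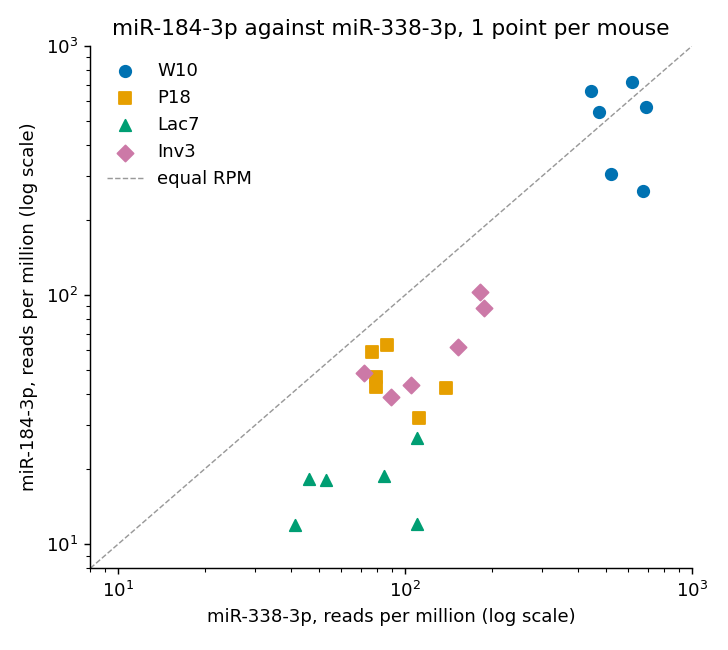
RPM of miR-184-3p against miR-338-3p on log axes, 1 point per mouse, with a dashed line at equal RPM. The W10 mice lie apart at the upper right, the Lac7 mice lie farthest below the line in the mean (ratio 0.259), with some P18 mice as far below it as some Lac7 mice, and the Inv3 mice lie among the P18 mice and above them.

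The miRNA opposite miR-338 showed no rise after lactation that the test detected. miR-3065-5p had a mean of 611 ± 85.6 RPM (SD, n = 6 mice) in adults. Its later means lay close together, with 188 ± 67.9 in pregnancy, 189 ± 75.9 in lactation and 183 ± 56.4 in involution. Between Lac7 and Inv3 its log2 fold change was -0.01 (SE 0.25, adjusted p = 0.987 by limma), and the ranges overlapped, from 108 to 276 RPM and from 98.3 to 248 RPM. Yet between mice of the same stage the pair moved closely together (24 mice after subtracting stage means, Pearson's r = 0.90 with a permutation p of 1e-05, Spearman's rho = 0.87 with p = 1e-05, the smallest that 100000 permutations can give, adjusted over 22 relations 0.00022 for each, and 0.87 for r once the most extreme 2 mice were dropped). This relation was chosen after the values were seen. In adults the ratio of miR-338-3p to miR-3065-5p was 0.943 ± 0.175, against 0.524 ± 0.0833 in pregnancy and 0.39 ± 0.0288 in lactation, with 0.709 ± 0.101 in involution (a description, with no test). It ran from 0.344 to 0.429 over the lactating mice and from 0.592 to 0.883 over the involuting ones. Of the other arms, miR-338-5p had at most 1 read in any library and miR-3065-3p at most 5, so neither could be followed at this depth, and miR-184-5p is not analysed here.

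**Figure D4:**
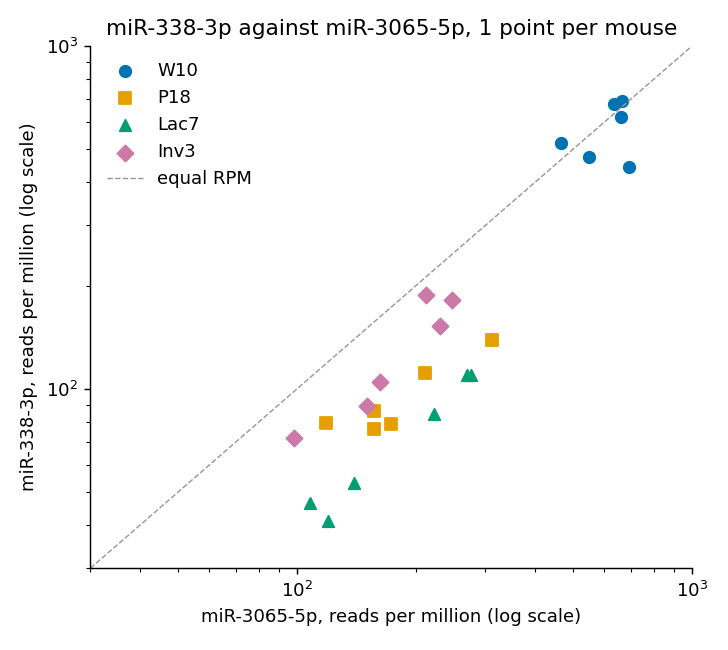
RPM of miR-338-3p against miR-3065-5p on log axes, 1 point per mouse, with a dashed line at equal RPM. Within each of P18, Lac7 and Inv3 the mice form a rising band, and the Lac7 band (ratio 0.39) lies below the Inv3 band (0.709).

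Many miRNAs known from particular cell types also changed between the same stages, so the members were set against lists of them. The list names are labels, since no cells were counted here. Of 8 epithelial miRNAs (the miR-200 and miR-183 clusters), all 8 fell from Lac7 to Inv3 by limma (18.9% of all tested miRNAs did), and their summed level fell from a mean of 130700 to 51760 RPM after 17770 at W10 and 60790 at P18. All 5 miRNAs of the list called fibroblast here (miR-199a-3p, miR-199a-5p, miR-214-3p, miR-143-3p and miR-145a-5p) rose, from a sum of 160800 to 300600 RPM (27.9% of all tested miRNAs were higher). Most of that sum was miR-143-3p, at 92350 RPM in W10, 138500 in Lac7 and 246200 in Inv3. miR-199a-3p took another course, with 82290, 19790 and 48930 RPM, so that at Inv3 it was below W10 and miR-143-3p above it. The 3 miRNAs of the lymphocyte list (miR-150-5p, miR-155-5p and miR-142a-3p) rose as well (again beside 27.9% of all tested), from a sum of 889 to 2701 RPM. Most of that sum was miR-142a-3p, at 797 RPM in Lac7 and 2325 in Inv3. Of the keratinocyte and basal pair, miR-205-5p rose from 155 ± 33.5 to 688 ± 302 RPM and miR-203-3p fell from 4943 ± 498 to 3044 ± 525 RPM. Of 4 skeletal muscle miRNAs 2 fell (miR-1a-3p and miR-206-3p), with sums from 104 to 5001 RPM over the lactating mice and from 215 to 947 over the involuting ones. Of the adipose-linked miRNAs, miR-365-3p rose from 91.2 ± 19.1 to 148 ± 52.1 RPM, while miR-193b-3p fell (adjusted p = 0.02 by limma) on at most 3 reads in any library of either stage and miR-193a-3p had at most 2. Of the 5 neural and glial miRNAs, miR-219a-5p, the partner of miR-338 in myelinating cells, rose from 6.13 ± 6.16 to 16.7 ± 8.32 RPM (log2 rise 1.72, adjusted p = 0.00446 by limma), never above 11 reads in a lactating library, and miR-9-5p was at 49.2 ± 11.1 and 51.9 ± 10.2 RPM. miR-124-3p, the most neuron-specific of them, had at most 8 reads per library at these stages, and miR-219a-2-3p and miR-219b-5p at most 1. The summed epithelial and fibroblast lists were at 15670 RPM or more in every library. The part that such shifts had in the members' rise was not tested, and the ratios that follow measure no share of cells.

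Set against the summed epithelial list, both members had larger folds from Lac7 to Inv3 than by themselves. The members rose and all 8 miRNAs of that list fell, so this had to follow, and the test of these ratios adds nothing to those results. The ratio of miR-184-3p to that list rose 9.61-fold and that of miR-338-3p 5.08-fold, in 6 of 6 mice each above every lactating mouse (two-sided exact permutation test, p = 0.00216, adjusted over 7 ratios 0.00379 for each). These folds average Inv3 mice that stood apart. The log2 ratio of miR-184-3p ran from -8.81 to -7.91 in mice 1, 2 and 5 and from -10.78 to -10.65 in mice 3, 4 and 6, beside -13.28 to -12.31 at Lac7. For miR-338-3p it ran from -7.52 to -7.09 and from -10.16 to -9.47 in the same mice, beside -11.52 to -10.20 at Lac7. Against the summed fibroblast list the members parted. The ratio of miR-184-3p to it rose 1.82-fold (exact permutation p = 0.00649, adjusted 0.00758), with 4 of 6 involuting mice above every lactating one. With a pseudocount of 10 its log2 difference went from 0.86 to 0.48 (adjusted exact permutation p = 0.0379), and that of the ratio of the members from 0.92 to 0.61 (0.0303). The ratio of miR-338-3p to the fibroblast list was 0.961-fold, a log2 difference of -0.06 with SDs between mice of 0.603 at Lac7 and 0.429 at Inv3 (exact permutation p = 0.84, adjusted 0.84), and it turned sign when any of Lac7 mouse 1, Lac7 mouse 3, Inv3 mouse 4 or Inv3 mouse 6 was left out (0.08, 0.07, 0.02 and 0.05). With the mean of the log2 values of the fibroblast list, which gives each miRNA the same weight, the log2 differences were 0.65 and -0.27. The first is that of miR-184-3p (adjusted exact permutation p = 0.0364) and the second that of miR-338-3p (0.417). The summed basal pair also fell, from a mean of 5098 to 3733 RPM, so folds against it had to be larger than those of the members alone. Against it, the ratio of miR-184-3p rose 4.68-fold (exact permutation p = 0.00216, adjusted 0.00379) and that of miR-338-3p 2.47-fold (exact permutation p = 0.00433, adjusted 0.00606). The last of these was lost with the mean of the log2 values of the list in place of their sum, in which miR-205-5p weighs as much as miR-203-3p (log2 difference 0.16, adjusted exact permutation p = 0.619), and that of miR-184-3p went from a log2 difference of 2.23 to 1.08. In percent of the W10 ratio, miR-184-3p stood at 4.91% against the epithelial and 7.74% against the fibroblast list at Inv3, and miR-338-3p at 8.5% and 13.4%, the fibroblast shares resting mostly on miR-143-3p, which was higher at Inv3 than at W10.

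**Figure D5:**
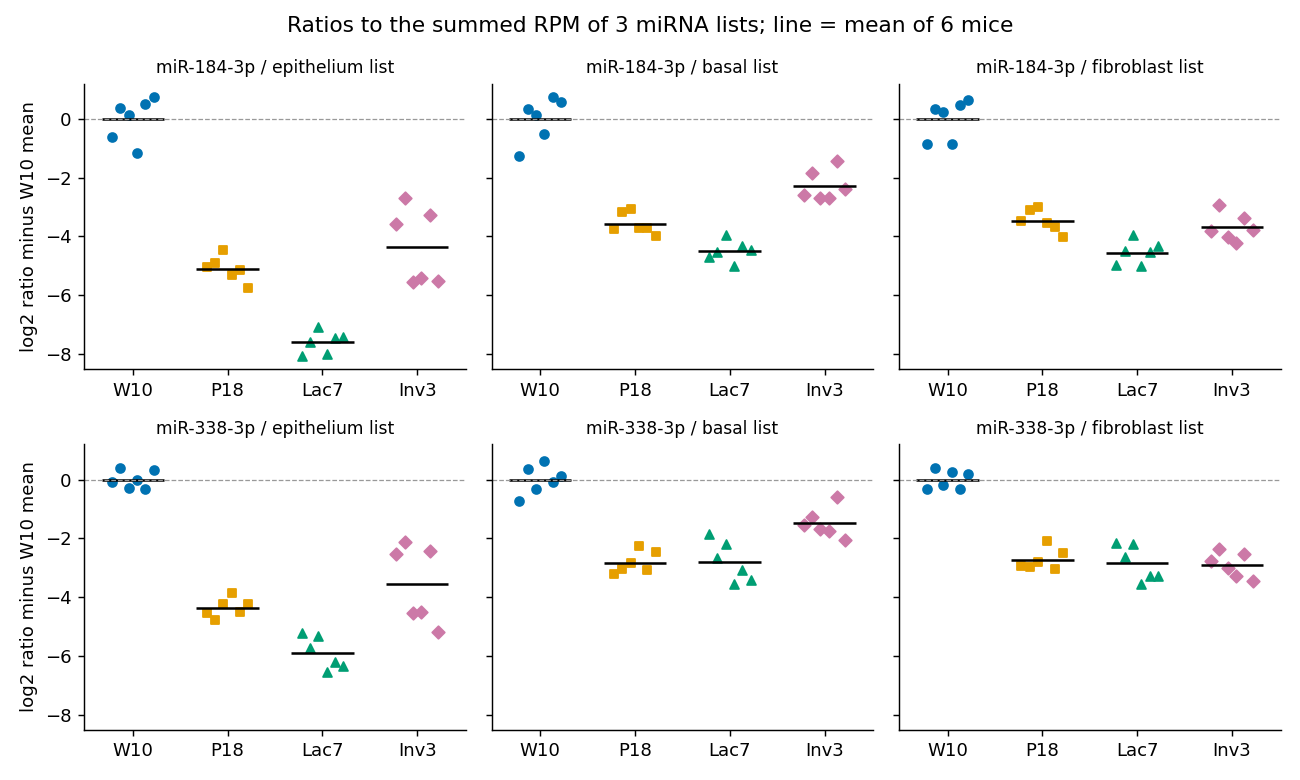
log2 ratio of each member (rows) to the summed RPM of the epithelial, basal and fibroblast lists (columns), minus the W10 mean, with 1 point per mouse and a line at the mean of 6 mice. Against the epithelial list both rise from Lac7 to Inv3 (9.61-fold and 5.08-fold). Against the fibroblast list, whose sum is mostly miR-143-3p, the ratio of miR-338-3p is 0.961-fold, with no change detected.

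Between mice of the same stage, miR-338-3p was related to 3 of the lists. After subtracting stage means over the 24 mice, miR-338-3p rose and fell with the neural and glial list, whose sum is mostly miR-9-5p (159 of 199 RPM at W10) (Pearson's r = 0.67 with a permutation p of 0.00074, Spearman's rho = 0.67 at p = 0.0021, the p-values over 22 relations adjusting to 0.0059 and 0.015, and r = 0.58 after the 2 most distant mice were dropped). It did so with the adipose-linked list, which is nearly all miR-365-3p (r = 0.66, permutation p = 0.00081, rho = 0.61, p = 0.0022, adjusted 0.0059 and 0.015, and r = 0.66 without 2 mice). Its relation to the skeletal muscle list was of like size (r = 0.63, permutation p = 0.0023, rho = 0.61, p = 0.0027, adjusted 0.013 and 0.015, and r = 0.56 without 2 mice). For miR-184-3p the same lists gave r = 0.23, 0.53 and -0.11, with adjusted permutation p-values of 0.41, 0.065 and 0.71. Whether the r of the members differ was not tested. With each other the members had r = 0.27 (permutation p = 0.23, rho = 0.27 with p = 0.23, adjusted 0.34 and 0.39, and r = 0.36 without 2 mice). At Lac7, mice 1 to 3 had 110, 84.3 and 110 RPM of miR-338-3p beside 5001, 2349 and 2276 RPM of the muscle list. Mice 4 to 6 had 41.2, 53.0 and 46.35 RPM beside 104, 117 and 2506 RPM. At P18, mice 4 and 6 had 139 and 111 RPM of miR-338-3p beside 2420 and 2164 RPM of the muscle list, and the other mice 76.6 to 86.3 RPM beside 194 to 641 RPM. At W10, mice 1 to 4 had 520, 689, 474 and 677 RPM of miR-338-3p beside muscle sums of 11000, 11720, 2378 and 24030 RPM. W10 mice 5 and 7 had 443 and 619 RPM beside 15310 and 3715 RPM, so the order of the mice differed there. The muscle list had a mean of 11360 RPM at W10 and 982 at P18. At Inv3, each of the 3 lists was also higher in mice 1, 2 and 5 than in mice 3, 4 and 6. These sets of mice also stood apart in the epithelial list. The part of that split in these relations, or of muscle in the values of miR-338-3p, was not tested.

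Over the 24 libraries, the miRNAs most like a member were taken as the 5 with the highest Pearson's r on log2(RPM + 1), among 284 others with a mean of at least 10 RPM. Since adult mice are high in all of them, such an r mostly reflects the stages. For miR-184-3p these were miR-365-3p (r = 0.946), miR-1843a-3p (0.944), miR-708-3p (0.922), miR-196b-5p (0.920) and miR-338-3p (0.918). For miR-338-3p they were miR-365-3p (0.944), miR-3065-5p (0.943), miR-9-5p (0.926), miR-184-3p (0.918) and miR-708-3p (0.911). The members were thus on each other's lists, and miR-365-3p led both. At Inv3, miR-365-3p was at 24.5% of its W10 mean, miR-708-3p at 28.4%, miR-9-5p at 32.6% and miR-196b-5p at 33.4%, and miR-1843a-3p at 54.4%. Of these, miR-365-3p, miR-708-3p, miR-196b-5p and miR-1843a-3p were higher at Inv3 than at Lac7 (adjusted p from 0.0035 for miR-1843a-3p to 0.0153 for miR-365-3p by limma), and miR-9-5p was not detectably so (0.704).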

How the data were processed

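Small RNA was measured in 24 mammary gland libraries, 6 per stage. Per the submitters' processing notes, reads were handled with Trimmomatic 0.36, cutadapt, FastQC and MultiQC on GRCm38, and the authors assigned them with QuickMIRSeq and miRBase 22. The authors deposited RPM, so every library has the same total. Whether molecular identifiers were used is not given in the sources used here. The RPM are whole multiples of 1 step per library (100% of values within 0.006 RPM), which gave back reads. A single read was worth 0.858 to 1.514 RPM and a count of 0 allows 2.57 to 4.54 RPM (3 reads, counting error only). No 2 libraries of a stage were alike within sampling noise, since the closest pair had a chi-square per degree of freedom of 9.6. No label says that mice were pooled.

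Testing covered 544 miRNAs, those whose mean reached 1 RPM in any stage, on log2(RPM + 1), which understates changes of low miRNAs, with limma 3.58.1 in R 4.3.3 (one fit of 24 libraries, eBayes with trend, two-sided Benjamini-Hochberg adjusted p). Ratios formed on RPM + 1 were compared by exact permutation and relations between mice by permutation within stages (scipy 1.17.1, numpy 2.4.6). edgeR 4.0.16 and DESeq2 1.42.0 on recovered reads served as alternatives. The scripts were tested on simulated data. miRNAs named are the members, the arms of their loci, miR-148a-3p, the lists and the 5 most alike to each. Neighbours in a ranking were named after their values were seen. The members and lists were chosen with earlier results of these data known. The mouse numbers (1 to 6, with 7 in place of 6 at W10) did not pair libraries. The mean correlation after subtracting stage means was -0.045 over 33 same-numbered pairs and 0.0039 over the 183 others.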

Additional observations from a re-analysis of the deposited data

How the results depend on the processing

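The rise of miR-184-3p from Lac7 to Inv3 kept its direction and an adjusted p under 0.05 under all alternatives run, with log2 fold changes from 1.37 (pseudocount 10) to 1.815 (edgeR), adjusted p from 5.89e-07 to 0.000238, and 1.61 to 1.88 with each of the 12 mice left out. That of miR-338-3p did so too, from 0.67 (size factors) to 0.85 (pseudocount 0.1), adjusted p from 0.0061 to 0.0446 (only the 12 libraries), and 0.69 to 0.99 with a mouse left out. With a replicate block for the mouse number the values were 1.76 and 0.84 (limma adjusted p = 1.21e-06 and 0.0145), so the block changed no call. The number of miRNAs called higher at Inv3 was 90 of 544, 44 of 544 with a pseudocount of 10 and 36 of only 188 tested with a filter at 100 RPM. The level at Inv3 as a share of W10 was 16.5% (miR-184-3p) and 30.5% (miR-338-3p) with size factors, and 11.1 to 13.7% and 21.1 to 25.1% with a mouse left out. The ratio of miR-338-3p to the basal list fell to a log2 difference of 0.164 with mean log2 values, and that to the fibroblast list ran from -0.198 to 0.0827 with a mouse left out, on either side of 0 and never past the threshold. Few reads limit miR-184-3p most, with 8 to 18 per library at Lac7.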

Other observations

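The involuting mice differed among themselves in how far the epithelial miRNAs had fallen. The summed epithelial list was at 28130, 24930 and 32260 RPM in Inv3 mice 1, 2 and 5 and at 77990, 63960 and 83280 RPM in mice 3, 4 and 6. In mice 1, 2 and 5, miR-184-3p was at 61.8, 103 and 88.6 RPM and miR-338-3p at 153, 182 and 188 RPM. In mice 3, 4 and 6, miR-184-3p was at 43.5, 38.9 and 48.5 RPM and miR-338-3p at 105, 89.1 and 72.02 RPM. The mice with the lower epithelial sums were thus the ones with the higher members. They also had the higher fibroblast sums (334500, 302300 and 349600 RPM in mice 1, 2 and 5, and 276300, 284300 and 256700 in mice 3, 4 and 6) and the higher adipose-linked sums (144, 242 and 169.5 RPM, and 121.5, 94.2 and 118 RPM). So it was, in the same order of mice, for the neural and glial sums (85.0, 79.2 and 81.0, and 66.2, 63.5 and 65.1 RPM). Skeletal muscle sums (289, 330 and 947, and 244, 215 and 259 RPM) and lymphocyte sums (3839, 3358 and 2547, and 1796, 2314 and 2352 RPM) did likewise. The basal sums overlapped (2985 to 4751, and 3207 to 3599 RPM). Over the 24 mice after subtracting stage means, miR-184-3p had a Pearson's r of -0.56 with the epithelial list (adjusted permutation p = 0.052). With miR-148a-3p, an abundant miRNA of milk-secreting glands, it also had r = -0.56 (adjusted permutation p = 0.063). miR-338-3p had r = -0.45 with each (adjusted permutation p = 0.18 for each), but rho of -0.26 and -0.19. The Inv3 mice fall apart on the epithelial list, and the part of that split in these relations was not tested. Nor was this difference within Inv3 tested.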
